A study of Homo sapiens with 60 samples.

Results

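The members described here are 10 genes of the NF-kB pathway. They are the subunit genes NFKB1, NFKB2, RELA and RELB, the inhibitor genes NFKBIA, NFKBIE, TNFAIP3 and TNIP1, and the cellular inhibitor of apoptosis genes BIRC2 and BIRC3. They were chosen by symbol, as the rows of the count table that map to these names. All 10 passed the filter on low counts, out of 60675 genes in the table and 16767 genes tested.

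The study exposed HT29 cells, an established human colorectal adenocarcinoma line, to herbal water extracts for 24 h and sequenced their polyadenylated RNA. The 60 libraries fall into 21 groups. The vehicle group received 0.1% DMSO per the sample labels, while the series text gives 2%. The reference compounds were wortmannin and LY294002, both inhibitors of phosphoinositide 3-kinases, each at 10 µM. The 6 extracts were Glycyrrhizae Radix (licorice root, Glycyrrhizae below), Poria Cocos (Poria), Paeoniae Radix (Paeoniae), Atractylodis Rhizoma (Atractylodis), Angelicae Gigantis Radix (Angelicae) and Panax Ginseng (Ginseng), each labelled at 500, 100 and 20 µg/mL. The series text allows lower doses for extracts with a low IC20, the dose that inhibits by 20%, but the labels give these 3 doses for every extract. There were 3 libraries in 18 groups and 2 in the 3 Paeoniae groups. All cells are of 1 line, and nothing in the labels says that replicates were separate cultures, so the p-values measure only the spread between these libraries, which may be technical.

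Total expected counts ranged from 20431980 to 35477712 per library. All 60 titles carry the same batch letter. The sample codes fall into 4 sets by their first number, whose meaning is not stated. The codes of both inhibitors begin with 1 and those of vehicle with the letter A and 1, so counting vehicle in set 1 is a reading of the codes that no label states. On that reading vehicle and both inhibitors carry code set 1, Poria and Atractylodis set 2, Glycyrrhizae and Ginseng set 3, and Angelicae and Paeoniae set 4. A difference between an extract and vehicle therefore cannot be told apart from a difference between code sets, while doses of 1 extract and the 2 extracts of a set share a code. Of 10 colon epithelial markers, 9 had a mean of at least 1 CPM, the read count scaled to library depth, the exception being CDX1. The summed CPM of these markers was 11260 in vehicle. Fibroblast and endothelial markers summed to at most 2.41 and 1.99 CPM in any group. Of 9 leukocyte markers, 4 had a mean of at least 1 CPM, namely LYZ at 1496, CD68 at 6.75, CD14 at 3.59 and ITGAM at 1.63 CPM. PTPRC, CD3E and NKG7 had means under 0.05 CPM, and MS4A1 was at 0 in every library.

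NF-kB proteins are dimeric transcription factors. In resting cells IkB proteins, such as the products of NFKBIA and NFKBIE, hold them in the cytoplasm. Signals from tumour necrosis factor, interleukin or Toll-like receptors lead to degradation of IkB, and the freed dimers enter the nucleus. Among their target genes are their own inhibitors, which closes a feedback loop, and in colon epithelium they also drive chemokine genes that recruit neutrophils. TNFAIP3 and its binding partner TNIP1 restrain the pathway through ubiquitin, and BIRC2 and BIRC3 encode ubiquitin ligases that act at the tumour necrosis factor receptor and on the kinase of the non-canonical branch.

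BIRC2 and BIRC3 lie beside each other on chromosome 11, at chr11:102347211-102378670 and chr11:102317450-102339403 on the plus strand (GRCh38, GENCODE 29). NFKBIA lies at chr14:35401511-35404749 on the minus strand. The 200 bases from -235 to -36 of their RefSeq start sites (GRCh38.p14) are shown because BIRC3 was the member whose level varied most, BIRC2 is its close paralog, and NFKBIA encodes the classical feedback inhibitor. Capitals mark matches to the 10-base NF-kB consensus, searched on both strands.
BIRC3, chr11:102317249-102317448, plus strand: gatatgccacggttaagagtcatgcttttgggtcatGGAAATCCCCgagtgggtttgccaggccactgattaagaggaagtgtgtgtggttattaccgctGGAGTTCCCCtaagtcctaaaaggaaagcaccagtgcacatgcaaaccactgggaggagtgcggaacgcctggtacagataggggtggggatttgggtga
BIRC2, chr11:102346979-102347178, plus strand: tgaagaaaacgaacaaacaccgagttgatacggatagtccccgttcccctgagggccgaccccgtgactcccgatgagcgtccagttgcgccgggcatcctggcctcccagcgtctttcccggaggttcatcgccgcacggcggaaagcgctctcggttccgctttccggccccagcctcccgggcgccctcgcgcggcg
NFKBIA, chr14:35404785-35404984, minus strand: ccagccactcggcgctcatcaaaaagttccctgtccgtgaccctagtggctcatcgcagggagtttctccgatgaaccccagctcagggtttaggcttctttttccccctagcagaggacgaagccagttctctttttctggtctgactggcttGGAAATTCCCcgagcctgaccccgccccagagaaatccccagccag
BIRC3 held matches that begin at -199 and -135, NFKBIA held 1 at -81, and BIRC2 held none in this window.

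Of the other members, NFKB1 held GGGAATTTCC at -49, TNIP1 held GGGACTTTCC at -42, and TNFAIP3 held GGAAAGTCCC and GGAAATCCCC at -67 and -55. NFKB2 held GGGAATTCCC at -107, overlapping GGAATTCCCC at -106, and GGGGCTTTCC at -78. Another NFKB2 start held matches at -176 and -21. Further starts of NFKB1, TNIP1 and NFKB2 held none. RELA held none. The promoter set had no entry for RELB or NFKBIE, so their promoters were not searched. In all, 6 of the 8 members with a promoter window of 250 bases before to 50 after a start held a match, against 13.3% of 27305 genes. Genes with more starts have more windows to match. By window, 7 of 14 of the members held a match, against 11.3% of 35116 windows. The members were chosen as genes of a pathway whose targets include its own inhibitors, so a share above that of all genes could be foreseen. A match describes the letters and is not evidence of binding in these cells.

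Per kilobase of annotated exon, the members ranged widely in vehicle. RELA, which encodes the main transactivating subunit, was highest at 24.7 ± 1.90 CPM per kilobase (SD, n = 3), followed by TNIP1 at 16.8 ± 0.252. NFKBIA at 11.6 ± 0.281 and BIRC2 at 11.3 ± 1.12 did not differ beyond their spread. NFKB1, which encodes the precursor of a DNA-binding subunit, came next at 9.39 ± 0.209. NFKB2, its counterpart of the non-canonical branch, stood at 3.65 ± 0.204, and NFKBIE at 2.34 ± 0.0834 and RELB at 2.31 ± 0.453 lay within their spread of each other. BIRC3 at 1.10 ± 0.200 and TNFAIP3 at 0.447 ± 0.0848 were lowest, TNFAIP3 resting on 37 counts in its lowest library.

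BIRC3 had the widest range of the 10 members, from 3.30 to 20.6 CPM over the 60 libraries, a 6.23-fold range, where the others spanned 1.31- to 2.67-fold. It was lower than vehicle with LY294002 and higher with Glycyrrhizae at 500 µg/mL. Its levels with Atractylodis and with the lower doses of Glycyrrhizae were also above every vehicle library. Its levels with Ginseng, Angelicae and Paeoniae lay around those of vehicle. For this member and those below, the share of all genes whose libraries lay apart from vehicle in the same way was not counted.

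**Figure D1:**
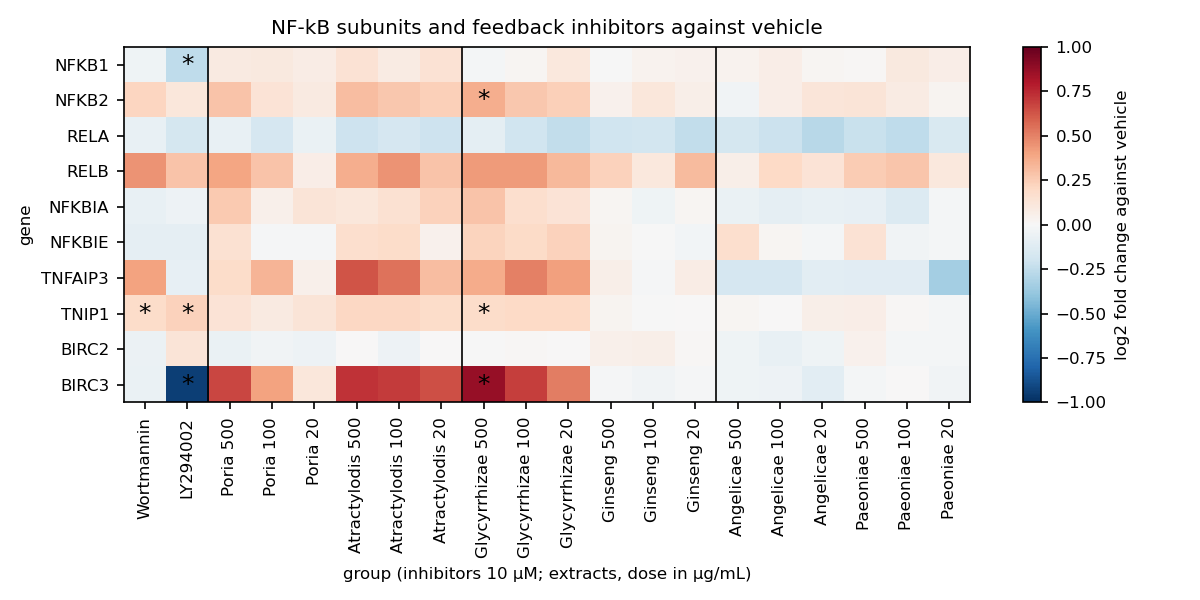
The heatmap gives the log2 fold change against vehicle (colour, from blue for lower to red for higher) of each member (rows) in each of the 20 treated groups (columns, separated by code set). Stars mark an adjusted p under 0.05; the BIRC3 row holds the deepest colours, blue with LY294002 and red with Poria at 500 µg/mL, Atractylodis and Glycyrrhizae.

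With LY294002, BIRC3 measured 4.59, 4.99 and 3.30 CPM, against 9.09, 9.13 and 6.50 CPM in vehicle. All 3 LY294002 libraries lay below all 3 vehicle libraries. BIRC3 fell by 0.94 ± 0.28 on the log2 scale (SE, n = 3 per group), with an adjusted p of 0.00583 in edgeR's quasi-likelihood test with Benjamini-Hochberg adjustment over all genes tested, as for every adjusted p below. With wortmannin BIRC3 measured 8.71, 7.78 and 7.12 CPM, which overlapped vehicle. Its log2 fold change there was -0.07 ± 0.26, with a 95% interval from -0.59 to 0.46 and an edgeR adjusted p of 0.914. Compared directly, BIRC3 was 0.88 ± 0.28 higher on the log2 scale with wortmannin than with LY294002 (edgeR adjusted p = 0.018). That call was lost without wortmannin replicate 1 or without LY294002 replicate 3, with adjusted p up to 0.11.

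With Glycyrrhizae at 500 µg/mL, BIRC3 measured 17.3, 13.6 and 14.5 CPM, all above vehicle. It rose by 0.87 ± 0.24 on the log2 scale (edgeR adjusted p = 0.0191). Without vehicle replicate 3 or without Glycyrrhizae replicate 1 the call was lost, with adjusted p up to 0.143. At 100 µg/mL the libraries measured 14.8, 12.4 and 12.8 CPM and at 20 µg/mL they measured 13.5, 10.2 and 11.7 CPM. These 6 libraries also lay above every vehicle library. Their log2 fold changes were 0.70 ± 0.25 (edgeR adjusted p = 0.161) and 0.51 ± 0.25 (edgeR adjusted p = 0.259), neither past the threshold of 0.05.

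Atractylodis gave a like level of BIRC3 at each dose. The libraries measured 14.4, 13.5 and 13.1 CPM at 500 µg/mL, 15.0, 14.1 and 11.3 CPM at 100 µg/mL, and 15.3, 11.7 and 11.6 CPM at 20 µg/mL. All 9 lay above the highest vehicle library. The log2 fold changes against vehicle were 0.73 ± 0.24, 0.70 ± 0.25 and 0.65 ± 0.25 in that order. None passed in the edgeR fit of all groups, with adjusted p of 0.178, 0.194 and 0.324, beside unadjusted p of 0.00467, 0.00656 and 0.0117. The fit of the compared groups alone called it at 500 µg/mL (edgeR adjusted p = 0.0488), and edgeR with no filter on low counts called it at all 3 doses. Between 500 and 20 µg/mL the log2 difference of BIRC3 was 0.08 ± 0.23 for Atractylodis (edgeR adjusted p = 1) and 0.36 ± 0.23 for Glycyrrhizae (edgeR adjusted p = 0.468). The 95% intervals of these dose differences ran from -0.39 to 0.55 and from -0.11 to 0.83.

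Averaged over the 3 doses, a comparison added after the values by dose were seen, BIRC3 was 0.69 ± 0.21 above vehicle with Glycyrrhizae (edgeR adjusted p = 0.0374, where 5.74% of all genes were called) and 0.69 ± 0.21 above it with Atractylodis (edgeR adjusted p = 0.0737). Only the first was called. It was lost in 5 of the 12 fits that left out 1 library, those without any 1 of the vehicle replicates or without Glycyrrhizae replicate 1 at 500 or 100 µg/mL, with adjusted p up to 0.335.

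Ginseng shares a code set with Glycyrrhizae, so their comparison does not involve the vehicle libraries. With Ginseng, BIRC3 measured 11.2, 6.69 and 6.61 CPM at 500 µg/mL, and 6.87 to 10.2 CPM at the lower doses. At 500 µg/mL BIRC3 was 0.89 ± 0.24 higher on the log2 scale with Glycyrrhizae (edgeR adjusted p = 0.0302). It was the 1 member called there, where 2.48% of all genes were called. The call was lost without Glycyrrhizae replicate 1 or 3 or without Ginseng replicate 2 or 3, with adjusted p up to 0.194. Averaged over the 3 doses, the difference was 0.72 ± 0.14 (edgeR adjusted p = 0.00141). It was called in each of the 18 fits that left out 1 library, with adjusted p from 0.000288 to 0.00567. NFKB2, at 0.22 ± 0.06 (edgeR adjusted p = 0.0213), and TNIP1, at 0.19 ± 0.03 (edgeR adjusted p = 4.3e-05), were also higher over the 3 doses, so 3 of 10 members were called beside 1.83% of all genes. The NFKB2 call was lost without Ginseng replicate 2 at 500 µg/mL, with an adjusted p of 0.0596.

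**Figure D2:**
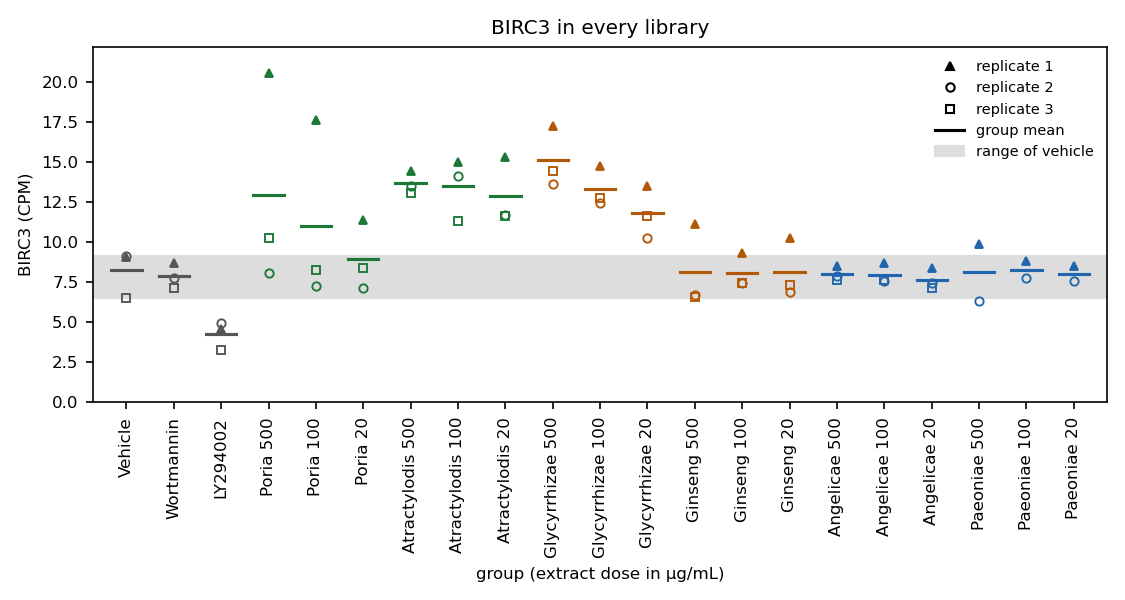
BIRC3 in CPM (vertical axis) in each of the 60 libraries by group (horizontal axis), with symbols for the replicate number, a bar for the group mean, colours for the 4 code sets and a grey band for the range of the vehicle libraries. All Atractylodis and Glycyrrhizae libraries lie above the band, from 10.2 to 17.3 CPM, and the LY294002 libraries lie below it.

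With Poria, BIRC3 split by replicate. Replicate 1 measured 20.6, 17.6 and 11.4 CPM at 500, 100 and 20 µg/mL, while replicates 2 and 3 measured 8.07 and 10.2, 7.25 and 8.28, and 7.12 and 8.40 CPM. Replicate 1 stood above the other Poria libraries of its dose each time. The log2 fold change at 500 µg/mL was 0.67 ± 0.25 (edgeR adjusted p = 0.0862), and without that library it was 0.15. CXCL8, a neutrophil chemokine and NF-kB target, split in the same way: 48.0 CPM in Poria replicate 1 at 500 µg/mL, against 11.1 and 11.2 CPM in the others.

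The replicate number moved with several members across the study. Replicate 1 was the highest of 3 in 16 of 18 groups for BIRC3 and for NFKBIA. With the replicate number added to the fit, replicate 1 exceeded the mean of replicates 2 and 3 by 0.41 ± 0.06 on the log2 scale for BIRC3 (edgeR adjusted p = 1.93e-07) and by 0.18 ± 0.03 for NFKBIA (edgeR adjusted p = 1.43e-06). RELB was higher by 0.21 ± 0.04 (edgeR adjusted p = 0.000113). In all, 7 members were called higher in replicate 1, where 12.6% of all genes were called higher. RELA, TNFAIP3 and TNIP1 were not called. What the number stands for is not given. Group differences from fits with the number added are described in the closing section, and whether it caused any of them was not tested.

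Leaving out every replicate 1 library, an alternative chosen after the values were seen, kept the direction of BIRC3 with Atractylodis and Glycyrrhizae and moved its calls. At 500, 100 and 20 µg/mL BIRC3 was then higher than vehicle by 0.76, 0.70 and 0.58 with Atractylodis (edgeR adjusted p = 0.00692, 0.0115 and 0.0291), beside 0.341%, 2.26% and 4.06% of all genes called. With Glycyrrhizae it was higher by 0.84, 0.69 and 0.49 (edgeR adjusted p = 0.000504, 0.0119 and 0.0279), beside 6.97%, 4.13% and 10.8% of all genes. With Poria it was not called at any dose, at 0.23, -0.01 and -0.02, beside 6.29%, 0.0294% and 0% of all genes. Over the 3 doses, BIRC3 was then lower with Poria than with Atractylodis, its partner in the code set, by a log2 difference of -0.61 (edgeR adjusted p = 1.79e-05). TNFAIP3, RELB, NFKB2 and TNIP1 were also lower, with TNFAIP3 at -0.63 (edgeR adjusted p = 0.00162), so 5 of 10 members were called beside 3.71% of all genes. These 5 were highest in replicate 1 at each Poria dose, and replicate 1 was left out after that was seen. Their calls are therefore no independent support for a lower level with Poria. With replicate 1 kept, the edgeR fit of all groups called none of the 10 in that comparison, where 1.62% of all genes were called. BIRC3 differed there by -0.30 ± 0.14 (edgeR adjusted p = 0.333). There 4 had an unadjusted p under 0.05, a count with no share of all genes beside it. DESeq2 called none there either, while edgeR with no filter on low counts called BIRC3 at -0.30 (edgeR adjusted p = 3.26e-05).

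BIRC2, the paralog of BIRC3, was not called in any comparison by edgeR in the fit of all groups. It was called in 1 of the 6 fits of LY294002 against vehicle and 2 of the 6 of wortmannin against LY294002 that left out 1 library. With the replicate number added to the fit within code sets, it was called with LY294002 against vehicle at 0.13 (edgeR adjusted p = 0.00952). Between wortmannin and LY294002 it was then called at -0.19 (edgeR adjusted p = 0.000467). In vehicle and with each inhibitor, BIRC2 was highest in replicate 2 and lowest in replicate 3. It stayed between 42.5 and 59.9 CPM over all libraries. With LY294002 it measured 57.4, 59.9 and 50.1 CPM, against 51.8, 55.7 and 45.6 CPM in vehicle, and the groups overlapped. Its log2 fold change was 0.13 ± 0.07 (edgeR adjusted p = 0.164). Between Glycyrrhizae and Ginseng at 500 µg/mL it was -0.05 ± 0.07, with a 95% interval from -0.20 to 0.09. The 2 genes are similar in sequence, and how the counting step shared reads between them was not examined.

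Among the subunits, NFKB1 fell with LY294002. It measured 49.6, 47.2 and 50.7 CPM, against 60.3, 58.2 and 57.9 CPM in vehicle, with no overlap. The log2 difference was -0.26 ± 0.05 (edgeR adjusted p = 1.44e-05). With wortmannin NFKB1 measured 59.3, 53.6 and 58.8 CPM, and it was 0.22 ± 0.05 higher than with LY294002 (edgeR adjusted p = 0.000382). This last call was lost when only those groups were fitted. In the 18 extract groups NFKB1 ranged from 58.1 to 65.1 CPM by group mean and was not called in the edgeR fit of all groups. DESeq2 called it over the 3 doses of Atractylodis, at 0.12 (DESeq2 adjusted p = 0.0375).

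NFKB2 rose with Glycyrrhizae at 500 µg/mL, where it measured 21.2, 22.1 and 19.9 CPM, against 16.9, 16.9 and 15.3 CPM in vehicle. The groups did not overlap, and the log2 difference was 0.36 ± 0.10 (edgeR adjusted p = 0.0144). The call was lost without vehicle replicate 3 or without Glycyrrhizae replicate 2, with adjusted p up to 0.102. All 9 Glycyrrhizae and all 9 Atractylodis libraries lay above every vehicle library, from 18.5 to 22.1 CPM. This was not particular to these extracts. In all, 38 of 51 extract libraries lay above every vehicle library, and 17 of 18 extract groups had a higher mean. The wortmannin libraries, from 17.6 to 19.8 CPM, and the LY294002 libraries, from 17.4 to 17.8 CPM, lay above vehicle as well. Over 3 doses against vehicle NFKB2 was called higher with Glycyrrhizae (0.29 ± 0.08, edgeR adjusted p = 0.0256). That call was lost without vehicle replicate 2 or 3.

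RELA was highest in vehicle, at 126, 133 and 146 CPM. All 18 extract groups had lower means, and 41 of 51 extract libraries lay below all 3 vehicle libraries. These comparisons share the same vehicle libraries, so they are not independent of each other. In the edgeR fit of all groups no single dose was called, with log2 fold changes from -0.28 to -0.06. Other settings called RELA lower more often: over all 39 comparisons it was called in 1 by that fit, in 6 by DESeq2, in 14 without all replicate 1 libraries and in 16 with no filter on low counts. The comparisons over 3 doses reuse the libraries of the single doses, so these counts are not repeated evidence. The share of all genes called under each setting is not given beside them. At single doses DESeq2 called it with Glycyrrhizae at 20 µg/mL (-0.25, DESeq2 adjusted p = 0.0451) and with Angelicae at 20 µg/mL (-0.28, DESeq2 adjusted p = 0.0265). Over the 3 doses of Angelicae RELA was called lower by a log2 difference of -0.22 ± 0.06 (edgeR adjusted p = 0.043), where 3.14% of all genes were called. Leaving out 1 library removed that call in 8 of 12 fits, among them those without vehicle replicate 2 or 3. With LY294002 RELA measured 125, 132 and 102 CPM, a log2 difference of -0.17 ± 0.08 that was not called (edgeR adjusted p = 0.0774).

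RELB, the partner of the NFKB2 product in the non-canonical branch, showed the opposite order, with vehicle lowest at 7.55, 8.02 and 5.44 CPM. All 18 extract groups had higher means, and 32 of 51 extract libraries exceeded every vehicle library. RELB was not called in any comparison by edgeR in the fit of all groups. It was called in 8 with no filter on low counts, in 7 without all replicate 1 libraries and in 2 by DESeq2, counts that again have no share of all genes beside them. With wortmannin it measured 9.85, 9.94 and 8.83 CPM, a log2 difference of 0.45 ± 0.16 (edgeR adjusted p = 0.0548). With Glycyrrhizae at 500 µg/mL it measured 9.51, 9.91 and 8.86 CPM, a log2 difference of 0.43 ± 0.16 (edgeR adjusted p = 0.0988). Vehicle replicate 3 was the lowest RELB library of all 60.

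**Figure D3:**
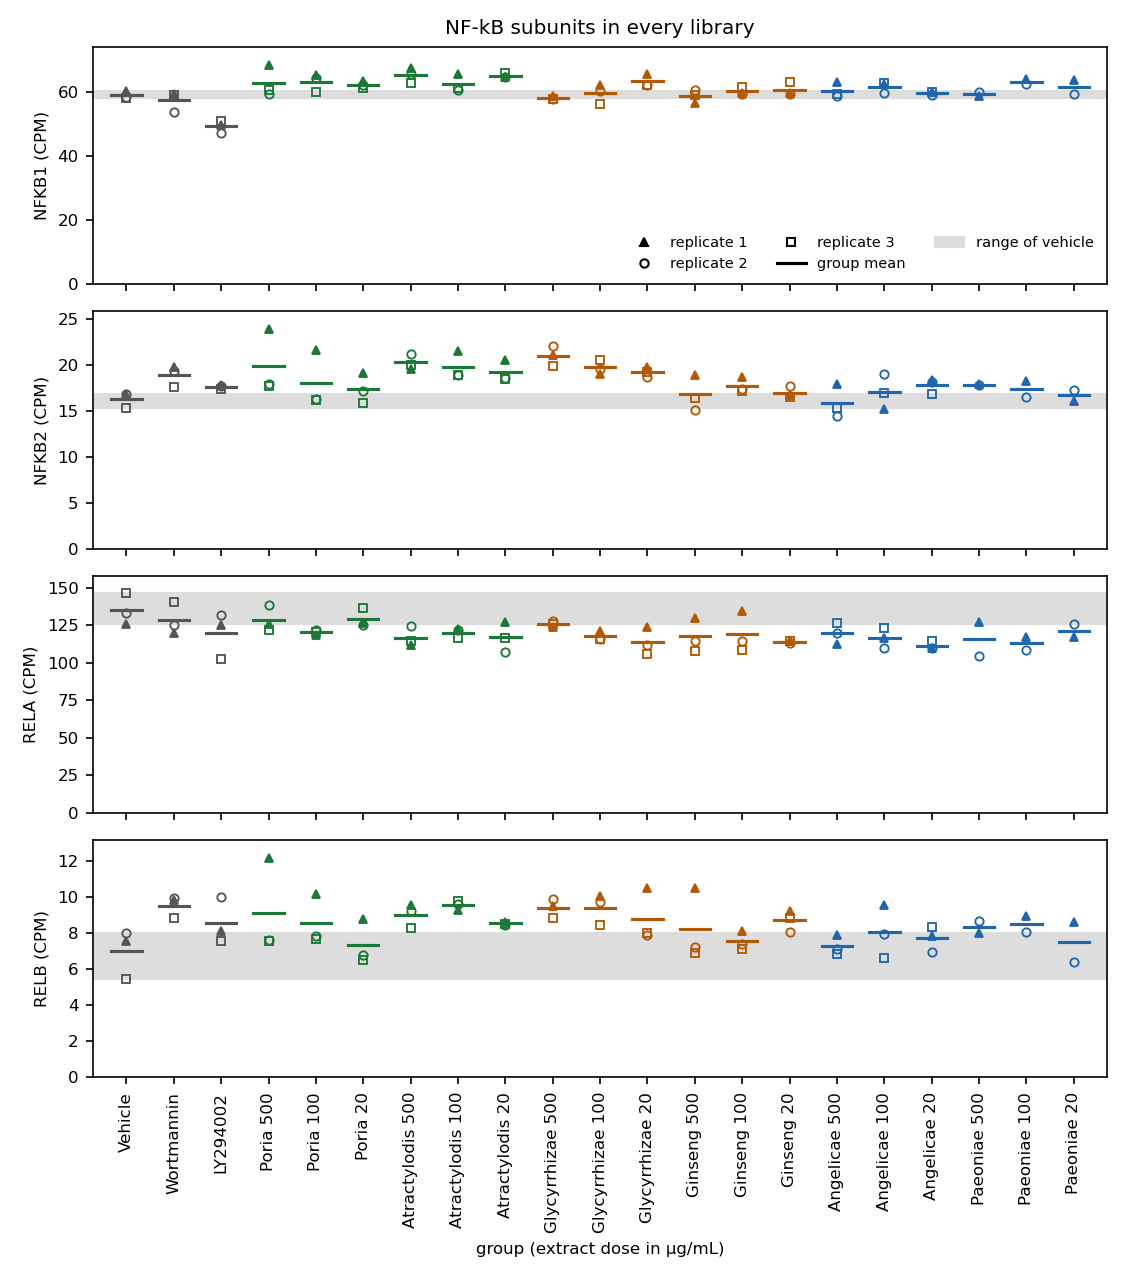
The 4 subunit genes in CPM (vertical axes from 0) in every library by group, with the same symbols, bars and band as in the BIRC3 plot. RELA lies at or below the vehicle band in the extract groups, RELB lies in or above it, and NFKB1 with LY294002 lies below it at 47.2 to 50.7 CPM.

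Of the 4 inhibitor genes, TNIP1 was the only one called by edgeR in the fit of all groups. It measured 97.5, 96.1 and 99.0 CPM in vehicle, 109.5, 107 and 116 CPM with wortmannin, and 118, 110.3 and 115 CPM with LY294002. Neither inhibitor group overlapped vehicle. TNIP1 rose by 0.19 ± 0.05 with wortmannin (edgeR adjusted p = 0.0105) and by 0.23 ± 0.05 with LY294002 (edgeR adjusted p = 0.000265). The first call was lost without wortmannin replicate 3. TNIP1 was the 1 member called with wortmannin, where 13.7% of all genes were called. With LY294002 it was 1 of 3, beside NFKB1 and BIRC3, where 39.2% of all genes were called, so the members' share was near the background. Between the inhibitors 2 members were called, beside 22.2% of all genes.

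TNIP1 also rose with Glycyrrhizae at 500 µg/mL, to 109.8, 109 and 115 CPM, by 0.19 ± 0.05 on the log2 scale (edgeR adjusted p = 0.0186). That call was lost without vehicle replicate 2 or without Glycyrrhizae replicate 3. With BIRC3 and NFKB2 this made 3 of 10 members called at that dose, where 6.91% of all genes were called. All 27 libraries of Poria, Atractylodis and Glycyrrhizae lay above every vehicle library. Over 3 doses against vehicle TNIP1 was called higher with Atractylodis (0.20 ± 0.04, edgeR adjusted p = 0.0111), where 0.978% of all genes were called. It was called higher with Glycyrrhizae as well (0.20 ± 0.04, edgeR adjusted p = 0.00463). The Atractylodis call was lost without vehicle replicate 2 or 3. The Ginseng, Angelicae and Paeoniae libraries measured 92.5 to 106 CPM.

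NFKBIA, which encodes the classical inducible IkB protein, was not called in any comparison by edgeR in the fit of all groups. It measured 28.3, 27.2 and 27.1 CPM in vehicle and 26.1, 28.7 and 25.1 CPM with LY294002. The log2 difference was -0.05 ± 0.12, with a 95% interval from -0.29 to 0.19. With Glycyrrhizae at 500 µg/mL it measured 35.4, 31.5 and 33.8 CPM, all above vehicle, a log2 difference of 0.29 ± 0.12 (edgeR adjusted p = 0.134). Without all replicate 1 libraries it was called there at 0.26 (edgeR adjusted p = 0.0356). It was then also called against Ginseng at 500 µg/mL at 0.37 (edgeR adjusted p = 0.00797), beside 1.92% of all genes. With no filter on low counts NFKBIA was called in 5 comparisons, a count with no share of all genes beside it. The highest NFKBIA library was Poria replicate 1 at 500 µg/mL, at 40.2 CPM.

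NFKBIE, which encodes another IkB protein, was low, from 4.90 to 8.31 CPM over all libraries, a 1.70-fold range. It was not called by edgeR in the fit of all groups. Its group means ran from 5.66 CPM with wortmannin to 7.10 CPM with Glycyrrhizae at 20 µg/mL. Of the 9 Glycyrrhizae libraries, 8 lay above every vehicle library. Over 3 doses NFKBIE was 0.22 ± 0.07 higher with Glycyrrhizae than with Ginseng, which did not pass (edgeR adjusted p = 0.0745). With the replicate number added to the fit, that difference was called (edgeR adjusted p = 0.0237). Adding the number within code sets called it too (edgeR adjusted p = 0.0142).

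TNFAIP3, a ubiquitin-editing enzyme, was the least abundant member and was also not called in that fit. Without all replicate 1 libraries it was called in 9 comparisons and with no filter on low counts in 3. These counts too have no share of all genes beside them. It measured 2.73, 2.14 and 1.90 CPM in vehicle. With Atractylodis at 500 µg/mL it measured 3.32, 3.62 and 3.55 CPM, all above vehicle, a log2 difference of 0.63 ± 0.21 (edgeR adjusted p = 0.164). With Glycyrrhizae at 100 µg/mL it measured 3.04, 3.23 and 3.38 CPM, again above vehicle, a log2 difference of 0.50 ± 0.21 (edgeR adjusted p = 0.234). Over 3 doses it was 0.39 ± 0.12 higher with Glycyrrhizae than with Ginseng, which did not pass (edgeR adjusted p = 0.0707).

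**Figure D4:**
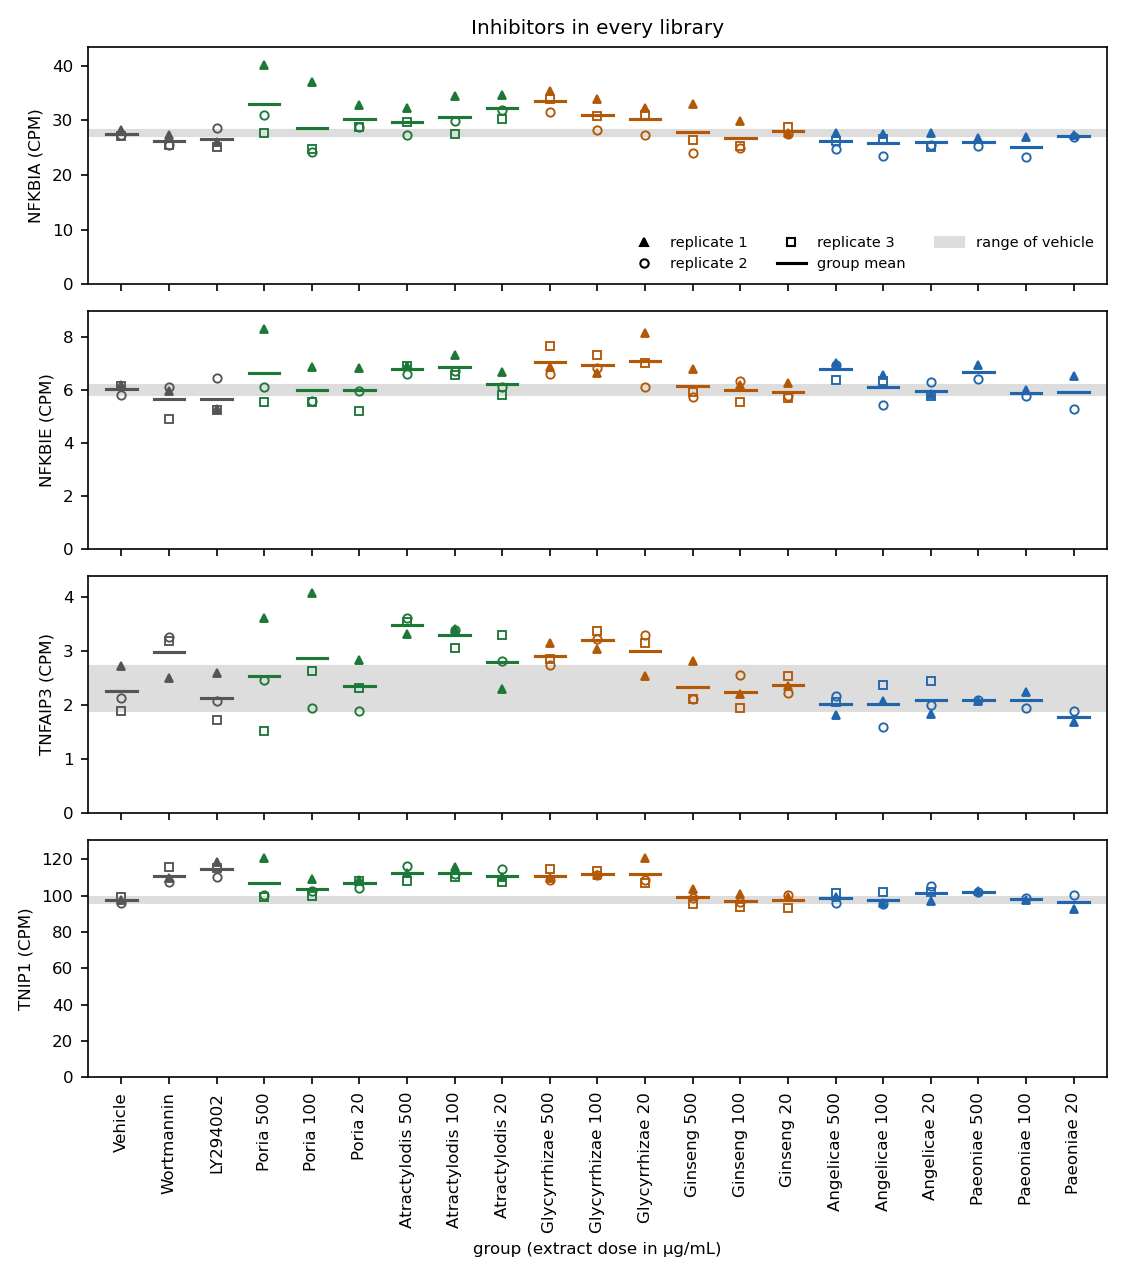
NFKBIA, NFKBIE, TNFAIP3 and TNIP1 in CPM (vertical axes from 0) in every library by group, with the same symbols, bars and band as in the BIRC3 plot. The replicate 1 triangles top most NFKBIA groups, and TNIP1 lies above the band with both inhibitors, Poria, Atractylodis and Glycyrrhizae.

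No member was called with Poria, Atractylodis, Ginseng, Angelicae or Paeoniae at 500 µg/mL, where 7.49%, 0.25%, 0.352%, 0.161% and 0.161% of all genes were called. The members with an unadjusted p under 0.05 there numbered 6, 7, 1, 1 and 1, the last 3 being RELA each time. DESeq2 called NFKB2 with Poria, TNIP1 with Atractylodis and none with the other 3. In the 12 comparisons of 100 or 20 µg/mL with vehicle edgeR also called none, while DESeq2 called 5 gene and dose pairs, 3 of TNIP1 and 2 of RELA. The share of all genes called by edgeR at 100 and 20 µg/mL was 0.0417% and 0% with Poria, 0.364% and 0.137% with Atractylodis, and 0.34% and 0.37% with Glycyrrhizae. It was 0% at both doses of Ginseng, 0.00596% and 0.173% with Angelicae, and 0.0477% and 0% with Paeoniae. Of these 12, Atractylodis and Glycyrrhizae held 6, 5, 6 and 6 members at an unadjusted p under 0.05, and the other 8 comparisons held at most 2. The share of all genes at an unadjusted p under 0.05 was not counted. The shares given here are at an adjusted p, so the unadjusted counts cannot be set beside them.

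No member was called between 500 and 20 µg/mL of any extract. The share of all genes called there was 5.51% for Poria, 3.85% for Glycyrrhizae, 0.0358% for Paeoniae, 0.0179% for Angelicae and 0% for Atractylodis and Ginseng. Poria held 3 members and Glycyrrhizae 1 at an unadjusted p under 0.05 in those dose comparisons, and the other 4 extracts held 0. DESeq2 called none. Between Poria and Atractylodis at 500 µg/mL no member was called either, beside 1.85% of all genes, nor between Angelicae and Paeoniae, beside 0.0179% at 500 µg/mL and 0.0119% over 3 doses. There 1, 0 and 0 members had an unadjusted p under 0.05, and DESeq2 called 0 in each. Over 3 doses against vehicle no member was called with Poria, Ginseng or Paeoniae, beside 0.769%, 1.91% and 0.746% of all genes. In these 3 an unadjusted p under 0.05 was held by 3, 1 and 1 members, and DESeq2 called RELA with Ginseng. Here too the shares of all genes are at an adjusted p and are no background for the unadjusted counts. A test of whether the dose difference itself differed between the extracts of a code set called no member, and none had an unadjusted p under 0.05. For Poria minus Atractylodis 0.394% of all genes were called, for the Glycyrrhizae set 0.0477% and for the Angelicae set 0%.

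**Figure D5:**
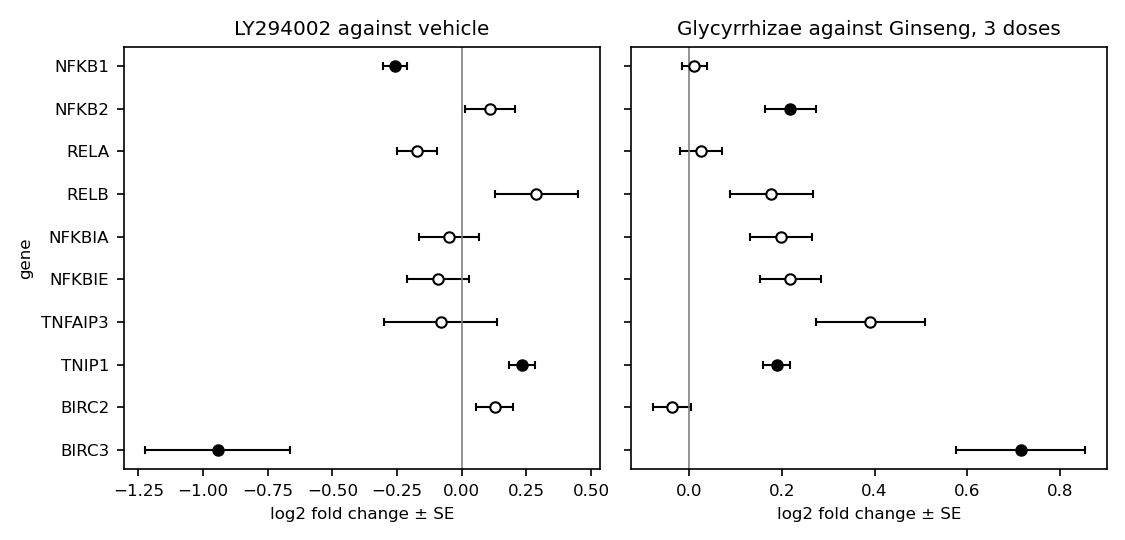
Log2 fold change with its SE (horizontal axes, which differ between panels) of each member for LY294002 against vehicle and for Glycyrrhizae against Ginseng over 3 doses. Filled points passed an adjusted p under 0.05: NFKB1, TNIP1 and BIRC3 in the first panel and NFKB2, TNIP1 and BIRC3 in the second.

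The rest of the pathway was read from lists of genes by role. With LY294002, where 39.2% of all genes were called, 4 of 5 other Rel and IkB genes were lower and none higher. REL, which encodes a further subunit, changed by -0.49 ± 0.10 on the log2 scale (edgeR adjusted p = 0.000146), and the IkB-family genes NFKBIB and NFKBID by -0.48 ± 0.06 and -0.45 ± 0.09. The median over these 5 was -0.45, beside 0.01 over all genes. Of 25 tested receptors and proximal adaptors, 5 were higher and 9 lower, with TLR4, the lipopolysaccharide receptor, at -0.77 ± 0.11 and IRAK1, an adaptor kinase, at -0.56 ± 0.05. TLR2 was listed at 0 in all 60 libraries. Of 20 kinases and ubiquitin factors, 1 was higher and 6 lower, with the IkB kinase gene CHUK at -0.31 ± 0.04. The 7 of 20 called is near the background of 39.2%. With the extracts at most 3 genes of any of these 3 lists were called by edgeR in a comparison with vehicle.

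NF-kB target genes outside the members were counted in the same way. Of 23 tested, 11 were higher and none lower with Glycyrrhizae at 500 µg/mL, beside 6.91% of all genes called there, and 9 were higher with Atractylodis at 500 µg/mL, beside 0.25%. With Poria at 500 µg/mL 8 were higher, beside 7.49%, and CXCL1 there measured 49.1 CPM in replicate 1 and 5.39 and 4.71 CPM in replicates 2 and 3. With Ginseng, Angelicae and Paeoniae none was called at any dose. CXCL8 rose by 2.13 ± 0.39 on the log2 scale with Glycyrrhizae at 500 µg/mL (edgeR adjusted p = 0.000228) and by 2.37 ± 0.38 with Atractylodis at 500 µg/mL (edgeR adjusted p = 0.000258). CXCL1, another neutrophil chemokine, rose by 3.67 ± 0.63 and 4.20 ± 0.62 in the same comparisons. At the lower doses 8 and 5 of the 23 were higher with Glycyrrhizae at 100 and 20 µg/mL, beside 0.34% and 0.37% of all genes, and 9 and 8 with Atractylodis, beside 0.364% and 0.137%. Against Ginseng at 500 µg/mL, 11 were higher with Glycyrrhizae, beside 2.48% of all genes. The median over the 23 was 0.40 with Glycyrrhizae at 500 µg/mL, where that of the 10 members was 0.25 and that of all genes was -0.01. With LY294002, 2 of the targets were higher and 6 lower, with PTGS2, the inducible cyclooxygenase, at -1.24 ± 0.12 (edgeR adjusted p = 3.87e-12). Beside the 39.2% of all genes called with LY294002, 8 of 23 is near the background. With wortmannin none of the 23 was called, beside 13.7% of all genes. These targets were chosen with earlier results of these data known.

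The genes outside the members whose mean log2 CPM followed a member most closely over the 21 groups were named for 5 members. For BIRC3 they were CXCL8 (Pearson r = 0.946), ZC3H12A, an RNase that degrades inflammatory transcripts (0.926), and CXCL2 (0.922). For NFKBIA they were IFNGR1 (0.892), ZC3H12A (0.879) and CEACAM7 (0.860). For NFKB2 they were SDC4 (0.906), CXCL3 (0.860) and KLK10 (0.842), and for TNFAIP3 they were IL23A (0.848), CXCL3 (0.843) and IL4I1 (0.837). For RELA they were SAMD4B (0.936), USP42 (0.930) and ZMIZ2 (0.929), none of which is on a list above. Among the members themselves BIRC3 followed NFKBIA at 0.787 and BIRC2 at -0.401. The group means share libraries, code sets and sequencing depth, and CEACAM7, IL23A and IL4I1 had means under 1 CPM, so these values describe likeness only.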

How the data were processed

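Polyadenylated RNA from HT29 cells (1 µg per library, directional kit, 100-base read pairs per the labels' protocols) was counted per gene by the submitters. The deposited values are expected counts. Per the submitters' processing notes the tools were FastQC 0.11.9, Trim Galore 0.6.5, STAR 2.7.3a and RSEM 1.3.3 with GRCh38. For the annotation release and the strand setting of the count step, the sources used here give nothing. Of the values above 0, 24.2% were not whole, and all were rounded for testing. The table holds 213 other columns, which were not used.

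Symbols and coordinates came from GENCODE 29 by Ensembl ID (57055 of 60675 genes), promoters from RefSeq. Genes with too few counts were removed (edgeR's filterByExpr, minimum count 10, minimum total 15), and 60 libraries were fitted together (edgeR 4.0.16 under R 4.3.3, quasi-likelihood, TMM scaling, 39 residual degrees of freedom). Adjusted p-values are Benjamini-Hochberg over 16767 genes within each of 30 comparisons, threshold 0.05; 9 comparisons over doses and 3 of dose differences were added after values were seen. CPM used TMM library sizes. A level per kilobase used the union of GENCODE 29 exons. In counts simulated for Glycyrrhizae at 500 µg/mL against vehicle (16575 genes fitted), the fit called 32 of 50 genes raised 1.5-fold and 42 of 50 raised 2-fold. The simulated counts held no effect of replicate number or code set and no change smaller than 1.5-fold. They therefore do not tell how often smaller changes, such as that of TNIP1, would be called. Replicate pairs differed by 2.63 to 24.1 times the binomial counting variance, so no library was a copy of another.

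All 10 members are named. From the other lists at most 3 genes per comparison are named, those called with the largest change and a mean of at least 5 CPM, and for 5 members the 3 genes of most like pattern. CXCL8 per library and TLR2 were added after their values were seen. Members and lists were chosen with earlier results of these data known. Alternatives were DESeq2 size factors, DESeq2 1.42.0, no count filter, fits of the compared groups alone, replicate blocks, and leaving out each library or all replicate 1 libraries.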

Additional observations from a re-analysis of the deposited data

How the results depend on the processing

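No call changed direction under any alternative. The 3 calls with LY294002 against vehicle held under all alternatives and each left-out library. The counts of members below stand without the share of all genes called under the same alternative. A move of the members can therefore not be told apart from a move of all genes. Counts of members called (gene and comparison pairs where several comparisons are summed) moved by over 1.5 times as follows. Without the count filter, the wortmannin count went from 1 to 2, Poria, Atractylodis, Ginseng and Paeoniae at 500 µg/mL from 0 to 4, 6, 1 and 1, Glycyrrhizae from 3 to 5, the 12 lower doses from 0 to 20, the 500 to 20 µg/mL contrasts of Poria and of Glycyrrhizae from 0 to 1 each, the 3 extract pairs at 500 µg/mL from 1 to 3, the 6 comparisons over 3 doses with vehicle from 5 to 16, and the 3 pairs over 3 doses from 3 to 6. In that fit the prior degrees of freedom were infinite, against 6.96 with the filter, so a gene's own spread had no weight, and the quasi-dispersion of BIRC3 was 0.853 instead of 4.60.

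The replicate block gave 2 with wortmannin, 4 with Poria, 1 with Atractylodis and 5 with Glycyrrhizae at 500 µg/mL, 5 at the 12 lower doses, 1 for Poria between doses, 3 for the pairs at 500 µg/mL, 10 over 3 doses with vehicle and 6 for the pairs over 3 doses. The replicate block within code set gave 2 with wortmannin, 1 for Poria between doses, 4 for the pairs at 500 µg/mL and 7 for the pairs over 3 doses. The block called BIRC3 with Atractylodis at 500 and 100 µg/mL (edgeR adjusted p = 0.0248 and 0.0301) and with Poria at 500 µg/mL (edgeR adjusted p = 0.0112), and NFKBIA in 4 comparisons, RELB in 5 and BIRC2 in 1. The libraries share only a number, and no label says that it marks a pairing. In 0 of the 25 comparisons with 3 pairs did every same-numbered pair correlate above 0.1 over the genes tested. That does not tell whether a single gene followed the number. DESeq2 gave 2 with wortmannin, 1 with Poria, 1 with Atractylodis, 5 at the lower doses, 2 for the pairs at 500 µg/mL and 10 over 3 doses with vehicle. Fits of the compared groups alone gave 1 between the inhibitors, 1 with Atractylodis at 500 µg/mL, 3 at the lower doses and 8 over 3 doses with vehicle.

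Without all replicate 1 libraries the counts were 3 with wortmannin, 5 with LY294002, 2 with Atractylodis, 5 with Glycyrrhizae, 1 with Ginseng and 1 with Paeoniae at 500 µg/mL, 18 at the lower doses, 6 for the pairs at 500 µg/mL, 15 over 3 doses with vehicle and 10 for the pairs over 3 doses. Smaller moves were from 3 to 4 with LY294002 (no count filter, block within code set), from 2 to 3 between the inhibitors (both blocks, no replicate 1), and from 3 to 4 with Glycyrrhizae at 500 µg/mL and for the pairs over 3 doses (compared groups alone). The share of all genes called moved as well without all replicate 1 libraries. It went from 0.37% to 10.8% with Glycyrrhizae at 20 µg/mL and from 7.49% to 6.29% with Poria at 500 µg/mL. The cause of these shifts, with or without the filter, was not tested. Leaving out 1 library at a time gave 0 to 2 with wortmannin, 3 to 4 with LY294002, 1 to 3 between the inhibitors, 0 to 3 with Poria, 0 to 0 with Atractylodis, 1 to 3 with Glycyrrhizae, 0 to 2 for the pairs at 500 µg/mL, 1 to 6 over 3 doses with vehicle and 2 to 6 for the pairs over 3 doses. TNFAIP3, with 37 counts in its lowest library, is the member most limited by depth.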
